A study of Mus musculus with 6 samples.

Results

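The 9 Hedgehog pathway genes Cdon, Boc, Ptch1, Hhip, Smo, Sufu, Gli1, Gli2 and Gli3 were followed through the RNA-Seq table of MPCs, a conditionally immortalized mouse podocyte line that multiplies in interferon gamma and differentiates once it is withdrawn. They were chosen by name from the known parts of the pathway, with earlier results of these data known. Each had 1 of the 24469 loci of the table. The study asked how high-glucose (HG) medium is answered in cells given rFGF1WT, the recombinant wild-type growth factor, or rFGF1ΔHBS, a partial agonist with a mutated heparan sulfate binding site. After 10 days of differentiation, all cells were starved of serum for 12 h and then held in 25 mM glucose for 12 h. The 3 groups of 2 libraries were HG with no pretreatment, HG after 1 h with 100 ng/mL rFGF1WT, and HG after 1 h with 100 ng/mL rFGF1ΔHBS. No group at normal glucose was analysed here, and every value is within HG. All libraries came from 1 cell line, and no source states that libraries 1 and 2 of a group came from separate cultures, so p-values measure only the spread between these libraries, which may be technical.

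Hedgehog ligands bind Patched receptors on the cell surface, with the help of the co-receptors Cdon and Boc, and thereby release Smoothened (Smo) from inhibition at the primary cilium. Smo then frees the GLI transcription factors from their inhibitor Sufu, so that full-length activators are made in place of repressors. In the kidney the pathway is best known from the developing ureter and from the stroma around injured tubules, and Gli1, Ptch1 and Hhip are themselves classical GLI targets, often read as a measure of pathway output.

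Expression was given as FPKM, the fragments assigned to a locus scaled by transcript length and by the fragments of the library, so that levels can be compared between genes per length. Low values of loci with a single transcript rose in steps that correspond to 22300000 to 23200000 fragments per library, so depth differed little between groups. FPKM summed to between 179594 and 185168 in the 6 libraries, and Pearson's r of log2(FPKM + 1) across tested loci, which are not independent replicates, was 0.916 to 0.923 within groups and 0.895 to 0.924 between groups. Of 13 podocyte markers, 12 were in the table and 6 had a mean of at least 1 FPKM. The defining markers Nphs1 and Wt1 were under 1 FPKM, so these defining transcripts were low in cells labelled as podocytes. Summed podocyte markers were 180 to 185 FPKM in HG, 232 to 234 with rFGF1WT and 213 to 225 with rFGF1ΔHBS, but the markers did not move together. Kirrel, from a mean of 16.3 FPKM in HG to 40.2, was called with rFGF1WT, whereas Synpo was at 9.91 in HG, 4.73 with rFGF1WT and 5.83 with rFGF1ΔHBS and was not called. The 3 measured tubule markers summed to 130 to 131 FPKM in HG and 86.2 to 98.0 in the 4 FGF1 libraries. Nearly all of this sum came from Cdh16, at a mean of 90.6 in HG and 71.1 with rFGF1WT, and Aqp1, at 39.8 and 23.3, neither called. Slc12a1 was at or under 0.0116 FPKM in all libraries, and Slc34a1 and Umod had no locus. The 5 endothelial markers summed to at most 0.167 FPKM. Mesangial and smooth muscle markers summed to 40.3 to 45.6 FPKM. Pdgfrb was at a mean of 32.3 in HG and 26.9 with rFGF1WT and Acta2 at 11.8 and 17.2, neither called. The other 3 of this list, Des, Itga8 and Ren1, were at or under 0.161 FPKM in all libraries. Macrophage markers summed to 60.9 to 62.8 FPKM in HG and 66.8 to 71.1 with FGF1, mostly from a locus that merges Cd68 with Eif4a1. The macrophage marker Csf1r went the other way and fell with both proteins, from a mean of 10.1 FPKM to 3.44 with rFGF1WT and 3.85 with rFGF1ΔHBS (limma adjusted p = 0.0114 and 0.0140). The other 3 of the 5 macrophage markers, Ptprc, Adgre1 and Itgam, were at or under 0.0548 FPKM in all libraries. The part of these shifts in the results below was not tested, and in bulk RNA fewer cells of a kind cannot be told apart from less RNA per cell. Of 4 FGF response genes taken as a check of the treatment, Etv4, Etv5 and Spry4 rose with both proteins, Etv5 from a mean of 0.532 to 8.02 FPKM with rFGF1WT and to 8.33 with rFGF1ΔHBS. Etv5 kept its calls when any 1 library was left out, whereas Etv4 and Spry4 lost both calls without HG library 1 (limma adjusted p 0.0561 to 0.0627). Without HG library 2 they lost the rFGF1ΔHBS calls, and Etv4 also the rFGF1WT call, without rFGF1WT library 1 Spry4 lost the rFGF1WT call, and without either rFGF1ΔHBS library both genes lost the rFGF1ΔHBS calls (limma adjusted p 0.0502 to 0.0587). Dusp6, which was not called, was at 2.96 and 3.67 FPKM in HG, 10.4 and 9.38 with rFGF1WT, and 9.90 and 26.3 with rFGF1ΔHBS.

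The co-receptor Cdon had the largest change among the Hedgehog genes tested. The table holds it as the assembled locus MSTRG.14566 with 6 Ensembl transcripts, at chr9:35421128-35507652 on the plus strand of GRCm38, where the longest has 20 exons. Cdon was at 17.2 and 17.7 FPKM in the HG libraries, 9.89 and 7.47 with rFGF1WT, and 7.51 and 6.98 with rFGF1ΔHBS. Both HG libraries stood above all 4 FGF1 libraries, while the rFGF1WT and rFGF1ΔHBS libraries overlapped. The mean was 17.5 ± 0.363 FPKM in HG (SD, n = 2), 8.68 ± 1.71 with rFGF1WT and 7.24 ± 0.379 with rFGF1ΔHBS. Relative to HG, the mean was therefore 0.497 times as high with rFGF1WT and 0.414 times as high with rFGF1ΔHBS.

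Differences were tested with limma on log2(FPKM + 1), a scale that understates changes of low genes, over the 10562 loci with a mean of at least 1 FPKM, and a locus was called at a Benjamini-Hochberg adjusted p under 0.05. Cdon fell with rFGF1WT by 0.94 on the log2 scale (SE 0.14, limma adjusted p = 0.0374). It fell with rFGF1ΔHBS by 1.17 (SE 0.14, limma adjusted p = 0.0248). Both differences use the same HG libraries and are not independent of each other. Between the proteins, Cdon differed by -0.22 (95% interval -0.59 to 0.15, limma adjusted p = 0.905), so no difference was detected. With 2 libraries against 2, an exact permutation test of a single gene cannot go below p = 0.333, and the calls rest on the spread shared across loci. The rFGF1WT call was lost without either HG library, without rFGF1WT library 2 or without either rFGF1ΔHBS library (limma adjusted p 0.0606 to 0.143), and held without rFGF1WT library 1 (limma adjusted p = 0.0358). The rFGF1ΔHBS call was lost without either HG or either rFGF1ΔHBS library (limma adjusted p 0.0975 to 0.109).

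**Figure D1:**
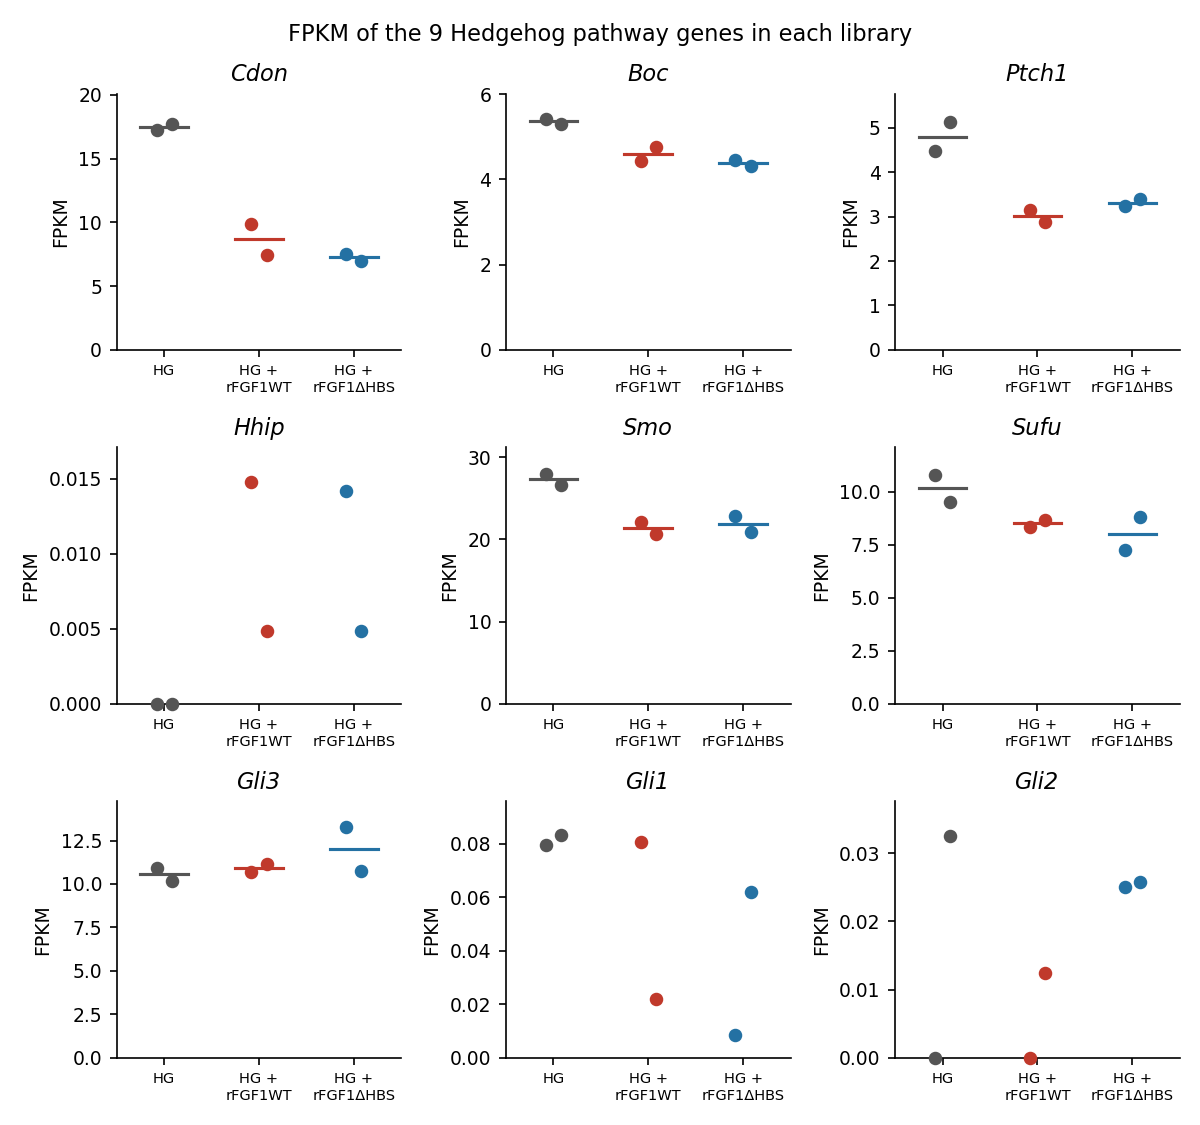
FPKM (vertical axes, each from 0 and with its own range) of the 9 Hedgehog genes in the HG, rFGF1WT and rFGF1ΔHBS libraries. Each point is 1 library and each line the mean of a group, drawn for the 6 tested genes only; Cdon stands at 17.2 and 17.7 in HG and at 6.98 to 9.89 in the 4 FGF1 libraries.

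Boc, the close relative of Cdon and the other co-receptor of the set, had a smaller difference. It was at 5.41 and 5.31 FPKM in HG, 4.42 and 4.76 with rFGF1WT, and 4.45 and 4.31 with rFGF1ΔHBS. All 4 FGF1 libraries lay below both HG libraries, but no test passed. The difference from HG was -0.19 with rFGF1WT (SE 0.06, limma adjusted p = 0.182) and -0.24 with rFGF1ΔHBS (SE 0.06, limma adjusted p = 0.114), and -0.05 between the proteins (95% interval -0.23 to 0.12). Boc has 1 transcript in the table, at chr16:44485049-44558897 on the minus strand. The ratio of Cdon to Boc within a library, which scaling cannot alter, was 3.18 to 3.34 in HG, 1.57 to 2.24 with rFGF1WT and 1.62 to 1.69 with rFGF1ΔHBS. Each of the 4 FGF1 libraries had a lower ratio than both HG libraries.

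The receptor Ptch1, which holds Smo inactive until ligand binds, was the other Hedgehog gene called. Its 10 transcripts lie at chr13:63508328-63573598 on the minus strand, as the assembled locus MSTRG.3889. Ptch1 was at 4.47 and 5.14 FPKM in HG, 3.14 and 2.87 with rFGF1WT, and 3.24 and 3.39 with rFGF1ΔHBS. None of the 3 groups overlapped another, with HG highest and rFGF1WT lowest. The mean was 4.80 ± 0.472 FPKM in HG (SD, n = 2), 3.01 ± 0.188 with rFGF1WT and 3.31 ± 0.101 with rFGF1ΔHBS. Ptch1 fell with rFGF1WT by 0.53 on the log2 scale (SE 0.09, limma adjusted p = 0.0497), just inside the threshold. With rFGF1ΔHBS the difference from the same HG libraries was -0.43 (SE 0.09, limma adjusted p = 0.0755), which did not pass. The proteins themselves differed by 0.11 (95% interval -0.13 to 0.35, limma adjusted p = 0.910), so a response to rFGF1WT alone was not shown. Leaving out any 1 of the 6 libraries ended the rFGF1WT call (limma adjusted p 0.101 to 0.160), with the difference between -0.62 and -0.45.

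Hhip, a decoy that takes up ligand, lies at chr8:79965851-80058006 on the minus strand. It was listed at 0 in both HG libraries, at 0.0148 and 0.00487 FPKM with rFGF1WT, and at 0.0142 and 0.00487 with rFGF1ΔHBS. From the steps in the FPKM these values stand for 3 or fewer fragments each, so no difference was detectable at this depth.

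Because Cdon and Ptch1 were the Hedgehog genes called, the 250 bases before their start in the RefSeq promoter table (GRCm38.p6) are shown, read 5′ to 3′ on the strand of the gene. Capitals would mark a GLI motif (GACCACCCA) or an ETS motif (CCGGAAGT), the latter bound by the Etv factors above, and neither sequence holds one on either strand. The Ptch1 bases are chr13:63565736-63565985 on the minus strand, and the Cdon bases are chr9:35451826-35452075 on the plus strand. Both starts are those of an Ensembl transcript of the locus, the Cdon start 30.9 kb and the Ptch1 start 7.9 kb inside the outermost start of the gene.
Ptch1: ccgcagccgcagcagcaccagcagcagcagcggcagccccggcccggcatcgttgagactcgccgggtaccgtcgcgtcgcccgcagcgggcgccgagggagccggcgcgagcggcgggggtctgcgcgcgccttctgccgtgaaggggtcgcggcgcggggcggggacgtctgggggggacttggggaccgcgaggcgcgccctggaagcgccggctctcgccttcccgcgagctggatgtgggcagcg
Cdon: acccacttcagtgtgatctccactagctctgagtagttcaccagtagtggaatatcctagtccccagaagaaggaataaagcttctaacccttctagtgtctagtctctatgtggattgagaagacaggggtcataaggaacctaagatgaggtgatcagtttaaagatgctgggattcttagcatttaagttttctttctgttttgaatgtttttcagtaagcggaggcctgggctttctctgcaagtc
The Ptch1 bases hold 41 CpG and are 78.4% G or C, whereas the Cdon bases hold 1 CpG and are 42.8% G or C. The median of all 32851 promoters in the table was 6 CpG and 52.4% G or C over the same length. Promoters of 7 of the 9 Hedgehog genes could be matched, and none held the GLI motif, the GLI motif with at most 1 mismatch or the ETS motif in the 300 bases from 250 before to 50 after the start. Of all promoters, 0.253% held the GLI motif, 6.74% held it with at most 1 mismatch, and 3.89% held the ETS motif. The absence of a match says only that these letters are not in these windows.

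Smo, the membrane protein that passes the signal on, was the most abundant Hedgehog gene in all 3 groups. It lies at chr6:29735503-29761365 on the plus strand. Smo was at 28.0 and 26.6 FPKM in HG, 22.1 and 20.6 with rFGF1WT, and 22.8 and 20.9 with rFGF1ΔHBS. The FGF1 groups overlapped each other and lay below both HG libraries. The difference from HG was -0.34 with rFGF1WT (SE 0.07, limma adjusted p = 0.0783) and -0.31 with rFGF1ΔHBS (SE 0.07, limma adjusted p = 0.0899), and neither passed the threshold. Between the proteins it was 0.03 (95% interval -0.16 to 0.22).

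Sufu, the cytoplasmic inhibitor that holds GLI proteins, lies at chr19:46396896-46488804 on the plus strand. It was at 10.8 and 9.52 FPKM in HG, 8.32 and 8.68 with rFGF1WT, and 7.26 and 8.78 with rFGF1ΔHBS. The HG libraries were the highest, and the other 2 groups overlapped. The difference from HG was -0.23 (SE 0.11, limma adjusted p = 0.303) with rFGF1WT and -0.31 (SE 0.11, limma adjusted p = 0.195) with rFGF1ΔHBS.

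Among the transcription factors, Gli3, which acts mostly as a repressor, was the only one with a mean of at least 1 FPKM. Gli3 lies at chr13:15463235-15730026 on the plus strand, and an exon overlaps the antisense gene Gm6556, whose reads cannot be told apart unless strand was used. It was at 10.9 and 10.2 FPKM in HG, 10.7 and 11.1 with rFGF1WT, and 13.3 and 10.7 with rFGF1ΔHBS. The groups overlapped in all 3 comparisons, and the high value of rFGF1ΔHBS library 1 was not shared by library 2. The difference from HG was 0.05 (95% interval -0.26 to 0.35, limma adjusted p = 0.834) with rFGF1WT and 0.16 (95% interval -0.14 to 0.47, limma adjusted p = 0.436) with rFGF1ΔHBS. Within libraries, the ratio of Gli3 to Sufu was 1.01 to 1.07 in HG. It was 1.28 to 1.29 with rFGF1WT and 1.22 to 1.82 with rFGF1ΔHBS. Every FGF1 library thus had the higher ratio, though neither gene was called. The ratio of Smo to Sufu overlapped between HG and both proteins, at 2.59 to 2.80, 2.38 to 2.65 and 2.38 to 3.14. That of Smo to Ptch1 was 5.18 to 6.26 in HG, 7.04 to 7.18 with rFGF1WT and 6.17 to 7.04 with rFGF1ΔHBS. That of Cdon to Smo was 0.616 to 0.667, 0.362 to 0.448 and 0.329 to 0.334, with HG highest. None of these ratios was tested.

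Gli1, the GLI activator most often used as a readout of the pathway, was near the limit of detection. It lies at chr10:127329882-127341974 on the minus strand, where its exons overlap those of Arhgap9 and Gm47200 on the other strand. Gli1 was at 0.0793 and 0.0833 FPKM in HG, 0.0806 and 0.0220 with rFGF1WT, and 0.00862 and 0.0618 with rFGF1ΔHBS. These levels correspond to about 7.41 and 7.56 fragments, 7.30 and 2.02 fragments, and 0.812 and 5.67 fragments per library. Gli2, the main activator of the pathway at chr1:118834132-119053619 on the minus strand, was listed at 0 and 0.0325 FPKM in HG, at 0 and 0.0124 with rFGF1WT, and at 0.0250 and 0.0258 with rFGF1ΔHBS. At most 4.83 fragments stood behind any value of Gli2. Gli1, Gli2 and Hhip were under the filter and left out of the test. In a fit with no filter, limma's adjusted p of these 3 genes was 0.589 to 1, and with so few fragments a difference was not detectable at this depth.

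By mean FPKM the order in HG was Smo, Cdon, Gli3, Sufu, Boc, Ptch1 and then Gli1, Gli2 and Hhip. Only Gli3 and Sufu, and Gli2 and Hhip, overlapped their neighbour. With either protein Gli3 stood above Cdon, and Cdon and Sufu overlapped.

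Of the 9 genes, 6 passed the filter and were tested. With rFGF1WT, 2 of the 6 were called, both lower, where 6.19% of all tested loci were called and 2.94% were called lower. With rFGF1ΔHBS, 1 of the 6 was called, lower, against 6.26% of all loci called and 2.89% called lower. At an unadjusted p under 0.05 the counts were 4 of 6 with rFGF1WT (24.8% of all loci) and 5 of 6 with rFGF1ΔHBS (24.9% of all loci). Between rFGF1ΔHBS and rFGF1WT, limma called 0 of the 6, with 0 at an unadjusted p under 0.05, against 0.549% of all loci called and 4.87% at an unadjusted p under 0.05. A 2-fold limit was also added, taken as a difference of at least 1 in log2(FPKM + 1). With it, 0, 1 and 0 of the 6 were called in these 3 comparisons, against 1.01%, 0.899% and 0.35% of all loci. The study's own 2-fold limit was on fold change in expression, and the added 1 FPKM makes the limit here stricter. Cdon with rFGF1WT had a ratio of means of 0.497 but a difference of -0.94, so it was past 2-fold on FPKM only. All 4 FGF1 libraries lay below both HG libraries for 5 of the 6 genes, all but Gli3, as they did for 25.5% of all tested loci. The median difference of the 6 genes was -0.29 with rFGF1WT and -0.31 with rFGF1ΔHBS, against -0.04 in both comparisons over all tested loci. The genes were chosen with earlier results of these data known, so these counts describe the 9 genes and do not set them apart from other groups.

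**Figure D2:**
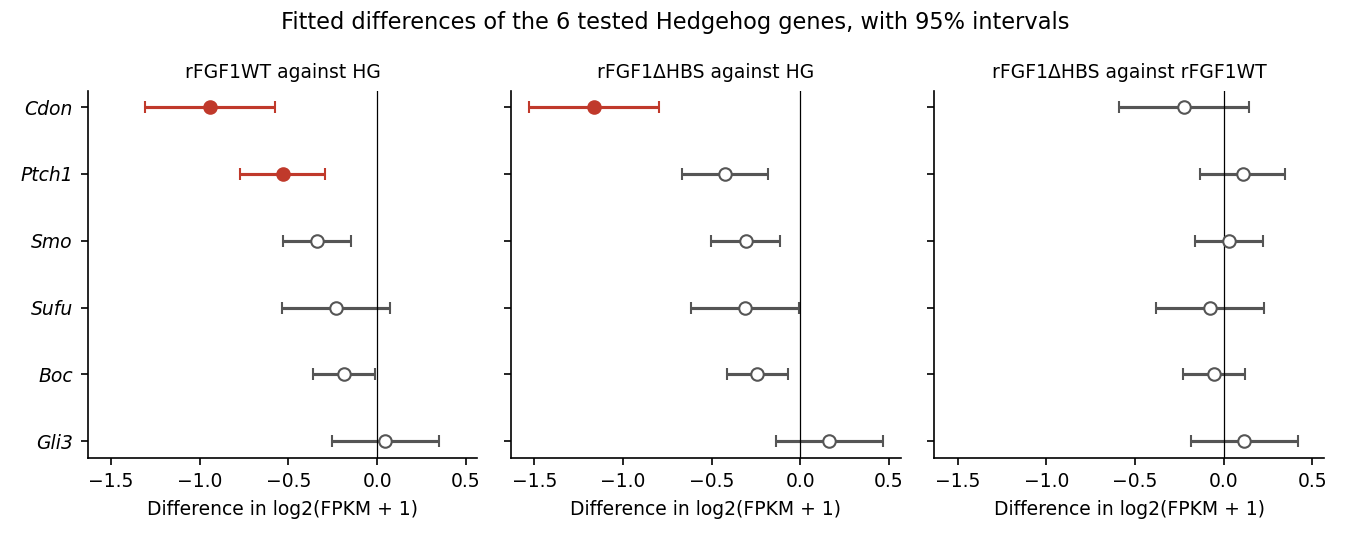
Fitted difference in log2(FPKM + 1), with its 95% interval, of the 6 tested Hedgehog genes in the 3 comparisons; filled red points passed an adjusted p of 0.05. Cdon lies at -0.94 and -1.17 against HG, and all 6 intervals between the proteins cross 0.

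**Figure D3:**
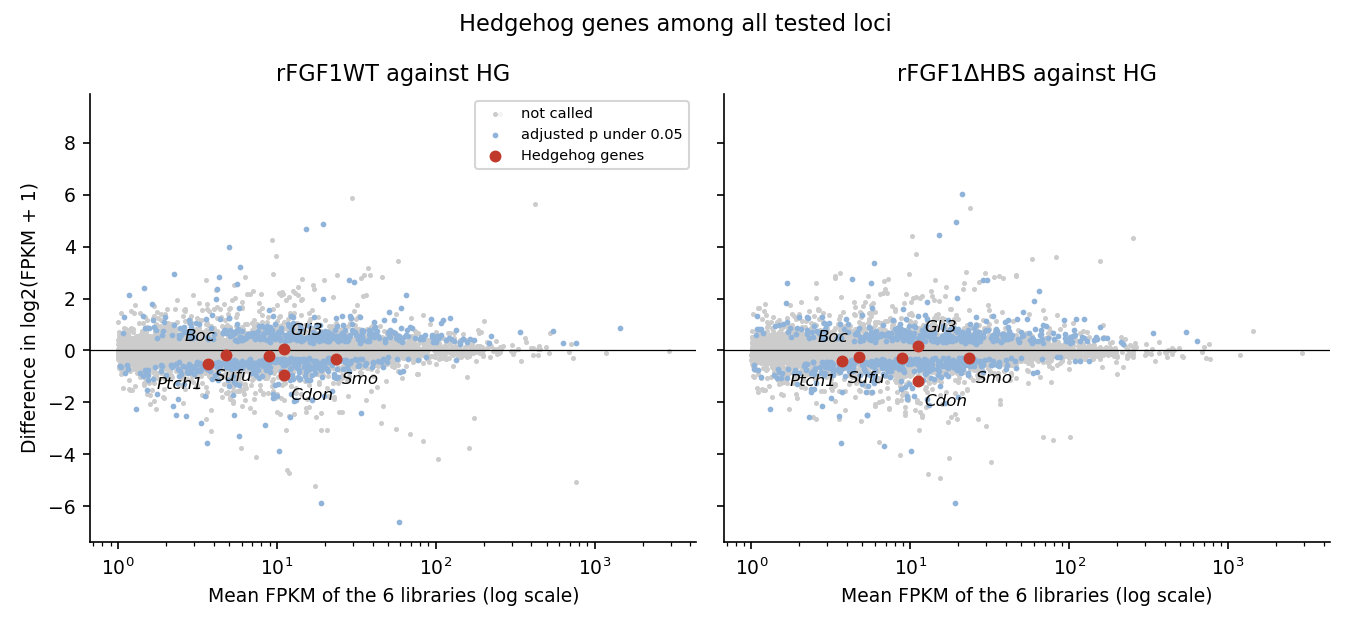
Mean FPKM of the 6 libraries (horizontal, log scale) and difference in log2(FPKM + 1) from HG (vertical) of the 10562 tested loci, with called loci in blue and the 6 Hedgehog genes in red. Cdon lies at -0.94 with rFGF1WT and -1.17 with rFGF1ΔHBS, and the other 5 Hedgehog genes lie between -0.53 and 0.16.

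Across the 6 libraries, the log2(FPKM + 1) of Cdon had a Pearson's r of 0.942 with Smo, 0.909 with Ptch1, 0.899 with Boc, 0.764 with Sufu and -0.50 with Gli3. These are descriptions of 6 points that form HG and FGF1 groups, and 790 of 10492 named loci had an r above 0.9 with Cdon. The most alike were Dtna (r = 0.995), Calr (r = 0.995) and Map3k4 (r = 0.994). Their levels differed widely in size, with Dtna at 3.14 and 3.25 FPKM in HG and 1.94 to 2.29 in the FGF1 libraries, and Calr at 163 and 165 in HG and 143 to 150 in the FGF1 libraries. Map3k4 was at 13.1 and 13.3 FPKM in HG and 11.5 to 12.0 in the FGF1 libraries.

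The rest of the pathway was read from lists of genes named for their roles. The ligands Shh, Ihh and Dhh were all under the filter, and no ligand exceeded 0.0495 FPKM, the value of Ihh in HG library 1. Ihh was at 0.0495 and 0.0147 FPKM in HG, and Dhh was at 0 in both. Of 5 genes for ligand maturation and release, only the transporter Disp1 was tested. Disp1 was at 9.06 and 9.41 FPKM in HG, 9.33 and 9.58 with rFGF1WT, and 9.44 and 2.94 with rFGF1ΔHBS. The 2.94 of a single library set it apart from the others, and Disp1 was not called, whereas it was called in both rFGF1ΔHBS comparisons once rFGF1ΔHBS library 1 was left out. Hhat, the enzyme that adds palmitate to ligands, was at 0.758 to 1.06 FPKM in all libraries.

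Of 4 other ligand-binding proteins, the endocytic receptor Lrp2 was tested. Lrp2 was at 28.5 and 26.9 FPKM in HG, 22.9 and 22.2 with rFGF1WT, and 22.7 and 24.0 with rFGF1ΔHBS, and its differences of -0.29 and -0.24 were not called (limma adjusted p = 0.0766 and 0.102). The co-receptor Gas1 was at or under 0.449 FPKM in all libraries.

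All 17 genes of the primary cilium and of Smo trafficking were tested, and 2 of them, Gpr161 and Ift172, fell with both proteins, where 2.94% of all tested loci were called lower with rFGF1WT and 2.89% with rFGF1ΔHBS. Gpr161, a ciliary receptor known as a brake on the pathway, was at 8.91 and 8.94 FPKM in HG, 5.24 and 5.47 with rFGF1WT, and 5.97 and 5.84 with rFGF1ΔHBS. It fell by 0.64 on the log2 scale with rFGF1WT (SE 0.06, limma adjusted p = 0.0159) and by 0.52 with rFGF1ΔHBS (SE 0.06, limma adjusted p = 0.0213). Ift172, a subunit of the intraflagellar transport machinery, was at 13.5 and 13.4 FPKM in HG, 9.77 and 9.49 with rFGF1WT, and 10.5 and 10.7 with rFGF1ΔHBS. It fell by 0.44 with rFGF1WT (limma adjusted p = 0.0244) and by 0.32 with rFGF1ΔHBS (limma adjusted p = 0.0474). Both genes lost their calls when any 1 of the 6 libraries was left out. Evc, a Smo-binding protein of the cilium, was at 30.4 and 38.5 FPKM in HG and 21.6 to 23.1 in the FGF1 libraries and was not called (limma adjusted p = 0.0789 and 0.0761). Grk2, a kinase that phosphorylates Smo, was at 23.7 and 22.7 FPKM in HG, 33.4 and 24.8 with rFGF1WT, and 25.4 in both rFGF1ΔHBS libraries and was not called. The median difference of the 17 genes was -0.20 with rFGF1WT and -0.13 with rFGF1ΔHBS, with 14 of 17 below 0 in each. Over all tested loci the median was -0.04 in both, with 56.2% and 55.6% below 0.

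Of 17 kinases and ubiquitin ligases that act on GLI proteins, 16 were tested and limma called 0 in any comparison, where 6.19%, 6.26% and 0.549% of all tested loci were called with rFGF1WT, with rFGF1ΔHBS and between the proteins. Gsk3b, a kinase that marks GLI proteins for processing, was at 5.73 FPKM in rFGF1ΔHBS library 1 and at 20.6 to 25.4 in the other 5 libraries. Gsk3b was called in both rFGF1ΔHBS comparisons once rFGF1ΔHBS library 2 was left out (limma adjusted p = 0.0200 and 0.0287). The median difference of the 16 genes was -0.16 with rFGF1WT and -0.11 with rFGF1ΔHBS. The most abundant were the protein kinase A subunits Prkar1a, at 63.0 to 71.8 FPKM, and Prkaca, at 53.2 and 52.1 FPKM in HG, 32.3 and 49.5 with rFGF1WT, and 48.5 and 52.2 with rFGF1ΔHBS.

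Of 14 genes listed as GLI targets in various tissues, 12 were in the table and 10 were tested. Ccnd1, Ccnd2 and Mycn rose with both proteins, and limma called 0 of the other 7 in any comparison. Of all tested loci, 3.26% were called higher with rFGF1WT and 3.37% with rFGF1ΔHBS. Ccnd1, the G1 cyclin, was at 5.53 and 5.05 FPKM in HG, 40.2 and 39.5 with rFGF1WT, and 39.1 and 42.5 with rFGF1ΔHBS. It rose by 2.70 with rFGF1WT (SE 0.07, limma adjusted p = 0.00145) and by 2.73 with rFGF1ΔHBS (SE 0.07, limma adjusted p = 0.00161). Ccnd2 was at 3.33 and 3.27 FPKM in HG and 11.3 to 12.1 in the FGF1 libraries. Mycn, a proliferative transcription factor, was at 1.82 and 1.80 FPKM in HG and 7.03 to 8.26 in the FGF1 libraries. Other pathways, growth factor signalling among them, also control these 3 genes. Rab34, the other abundant gene of the list, was at 18.1 and 20.6 FPKM in HG and 17.3 to 20.4 in the FGF1 libraries. The difference from HG was below 0 for 3 of the 10 genes with rFGF1WT and 4 with rFGF1ΔHBS. Foxm1, in a locus merged with Nrip2, fell most. It was at 14.8 and 14.4 FPKM in HG and 5.31 to 11.3 in the FGF1 libraries and was not called (limma adjusted p = 0.207 and 0.0857).

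**Figure D4:**
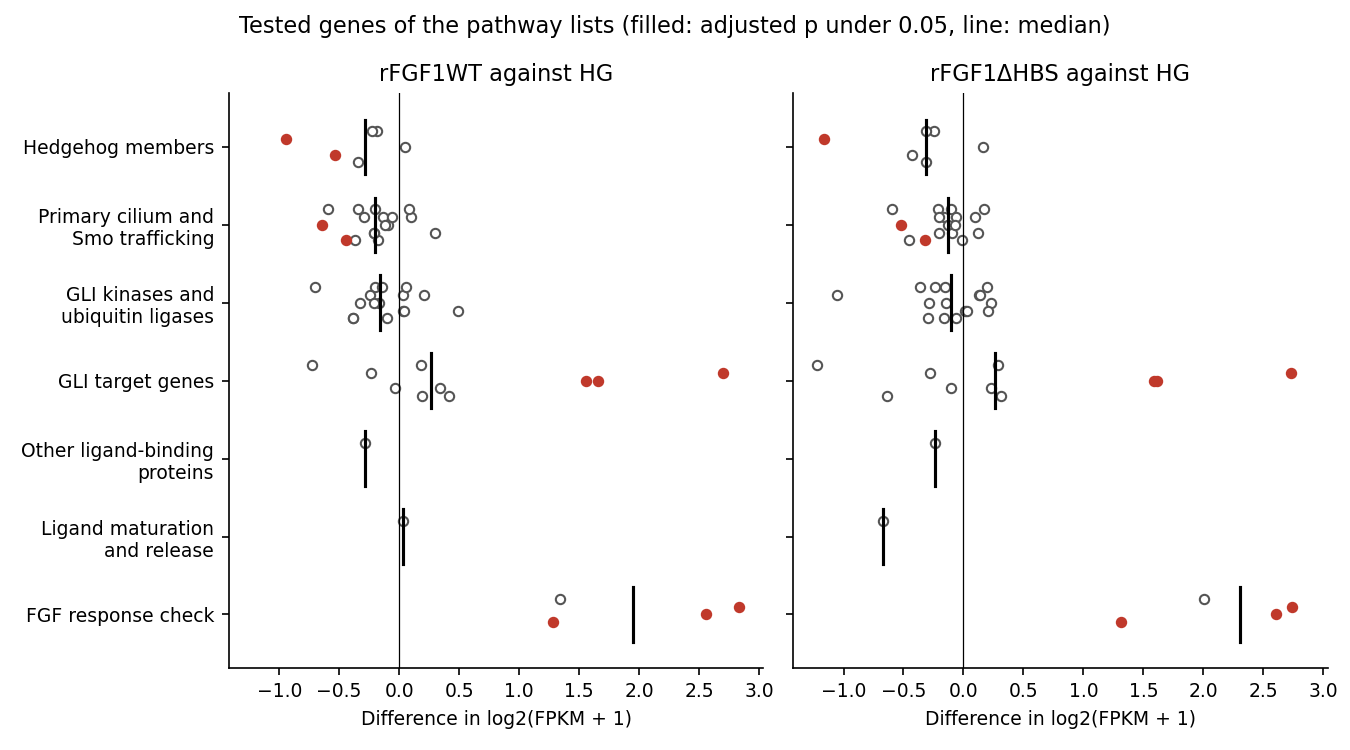
Difference in log2(FPKM + 1) from HG of each tested gene of the pathway lists, for rFGF1WT (left) and rFGF1ΔHBS (right); each point is 1 gene, filled where the adjusted p was under 0.05, and the line is the median of the list. Cdon and Ptch1 on the left, and Cdon on the right, are the called Hedgehog members, all below 0, whereas the called GLI target genes Ccnd1, Ccnd2 and Mycn lie above 1.5.

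The table's own KEGG annotation gives 43 loci to the Hedgehog signaling pathway, all 9 genes among them, and 35 were tested. With rFGF1WT, 2 rose (Ccnd1 and Ccnd2) and 3 fell (Cdon, Ptch1 and Gpr161), where 3.26% of all tested loci were called higher and 2.94% lower. With rFGF1ΔHBS, 2 rose and 2 fell, which left out Ptch1, where 3.37% of all tested loci were called higher and 2.89% lower. The 5 calls with rFGF1WT went to 3 without rFGF1WT library 1 and to 2 without any other library, and the 4 with rFGF1ΔHBS went to 2 or 3. Without the 9 genes, 29 loci were tested, and Ccnd1, Ccnd2 and Gpr161 were called in both comparisons, with a median of -0.10 with rFGF1WT and -0.06 with rFGF1ΔHBS. Limma called 0 of the 35 between rFGF1ΔHBS and rFGF1WT, and 1 without rFGF1ΔHBS library 2.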

How the data were processed

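RNA-Seq measured poly(A) RNA in 6 MPC libraries, grouped by their labels. The authors deposited 1 table of FPKM per locus. Their methods name edgeR for summarising FPKM, with limits of q under 0.05 and 2-fold, and the submitters' processing notes list Bowtie 0.12.2, HISAT2 2.0, StringTie 1.3.0 and the build mm8, with no roles. The table gives no coordinates. Since 99.6% of its Ensembl transcripts were found in GENCODE M21, positions were taken from that annotation (GRCm38), and the build of the alignment stays uncertain. Whether strand was used is not given in the sources used here. FPKM are not counts, so no count model was run.

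Here limma 3.58.1, run in R 4.3.3, was fitted to log2(FPKM + 1) with lmFit and, after contrasts, with eBayes and a mean trend, for the 10562 of 24469 loci with a mean of at least 1 FPKM. All 6 libraries entered 1 fit with 3 group means and 3 residual degrees of freedom, and p-values were Benjamini-Hochberg adjusted over all tested loci. The fit was tested on simulated data, with changes set in FPKM + 1 and only at loci with a mean log2(FPKM + 1) above 1. Of 200 changed loci it recovered 15.5%, 68% and 80% at 1.5-fold, 2-fold and 4-fold in FPKM + 1. It also called 1, 15 and 7 unchanged loci. Most 1.5-fold changes on this scale were thus missed. Fragments behind low values were read from the steps of FPKM times length of loci with a single transcript, of which 39.6% to 41.3% lay on a step or midway between steps (10% by chance, tolerance 0.05), so they are estimates and cover counting error only. Tables were made with pandas 2.3.3 and numpy 2.4.6 in Python 3.11.15, and plots with matplotlib 3.10.9.

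Named genes are the 9 members, per list the called genes and the 2 of highest mean FPKM, and the 3 loci most like Cdon, the member of lowest adjusted p. Gsk3b, Disp1 under other settings, Foxm1 and marker genes were named after their values were seen. Members and lists were chosen with earlier results of these data known. Alternatives were a pseudocount of 0.1, no filter, a filter at 5 FPKM, robust empirical Bayes, only loci above 0 in every library, quantile normalization, median-ratio scaling, a replicate block, a fit of the 4 libraries compared, summed loci per symbol, the 2-fold limit, and leaving out each library.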

Additional observations from a re-analysis of the deposited data

How the results depend on the processing

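The number of Hedgehog genes called with rFGF1WT, 2 of 6, went to 0 with no filter (0 of 9) and with only the 4 libraries compared. It also went to 0 with the 2-fold limit on log2(FPKM + 1). It went to 1 with a filter at 5 FPKM, where Ptch1 and Boc were not tested, and to 1 with median-ratio scaling, quantile normalization and robust empirical Bayes, in each of which Ptch1 was lost (adjusted p 0.0511 to 0.0541). Leaving out each library gave 0 to 1. The 1 gene called with rFGF1ΔHBS, Cdon, passed the 2-fold limit, and leaving out each library gave 0 to 1. No setting called a Hedgehog gene between rFGF1ΔHBS and rFGF1WT. Cdon, Ptch1, Smo, Boc and Sufu were below HG in every setting that tested them, with both proteins. Where a direction reversed, no difference had been called. Gli3 with rFGF1WT against HG was at -0.0020 without HG library 2, the lowest of a range up to 0.095 over the libraries left out. Between the proteins that range was -0.022 to 0.26 for Gli3, -0.029 to 0.092 for Smo and -0.20 to 0.043 for Sufu, and the reversed ends came without rFGF1ΔHBS library 1. Smo was also at -0.015 without rFGF1WT library 2.

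Loci called with rFGF1WT, 654 in all, went to 407 with no filter, 170 with only the 4 libraries compared, 107 with the 2-fold limit, and 134 to 195 when each library was left out. With rFGF1ΔHBS, 661 went to 386, 189, 95, and 118 to 198. Between the proteins, 58 went to 31 with a filter at 5 FPKM, 19 with only loci above 0 in all libraries, 37 with the 2-fold limit, and 43 to 107. Gpr161 and Ift172 lost their calls with only the 4 libraries compared, and Ift172 lost its rFGF1ΔHBS call also under median-ratio scaling, quantile normalization, robust empirical Bayes and no filter (adjusted p 0.0508 to 0.0689). A lone library is assumed to vary like the other groups. Except for the smaller numbers of libraries, tests and calls that a setting allows by construction, the cause was not tested.

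Replicate numbers were not treated as pairs in the main fit. Deviations of libraries with the same number correlated at -0.02, 0.10 and -0.05, and no source says that a number marks a shared batch. Such low correlations over all loci cannot exclude a batch that affects some of them. With the number as a replicate block, 0 Hedgehog genes were called with rFGF1WT and 0 with rFGF1ΔHBS, and the loci called were 41, 39 and, between the proteins, 6. Under the block, 2 loci of the KEGG Hedgehog pathway were called with each protein, and 1 gene, Etv5, of the FGF response check.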
